A study of Mus musculus with 40 samples.

Results

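The genes described here are 36 members of the heat shock response and the unfolded protein response, chosen by name: 16 that encode cytosolic or nuclear proteins, 3 mitochondrial chaperones and 17 that act in or report to the endoplasmic reticulum (ER). All 36 were among the 32531 gene symbols of the count files. The RNA was ribosome-bound RNA of the accumbens nucleus, from adult animals of the Drd1-TRAP line CP73. In this line the Drd1 promoter drives EGFP fused to the ribosomal protein Rpl10a, so that tagged polysomes can be pulled down with antibodies to EGFP, and it therefore samples cells in which that promoter is active. All 6 groups carried this transgene on a background of FVB/N-Swiss Webster crossed to C57BL/6 for at least 9 generations, and only immunopurified RNA was sequenced. Before this, animals had worked for intravenous saline or cocaine in long-access sessions, and the submitters divided the cocaine animals by intake into nonescalating and escalating. At 24 hours after self-administration there were 6 saline, 9 nonescalating and 5 escalating libraries, and at about 1 month there were 5 saline, 10 nonescalating and 4 escalating libraries. An 11th nonescalating library of 1 month, numbered 1595, held 5168 counts in all, 46 of them in these genes, and was left out. Libraries are named by the number in their label, n counts libraries, and the labels do not say how many animals stand behind each. P-values therefore measure the spread between these samples, which may be technical.

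Cells meet misfolded protein with separate programmes in separate compartments. In the cytosol, the transcription factor HSF1 is held inactive by chaperones and is released when they are occupied by unfolded client proteins, after which it binds heat shock elements and raises HSP70, HSP90, HSP110 and J-domain genes. In the ER, the sensors ATF6, IRE1 (Ern1) and PERK (Eif2ak3) are held by BiP (Hspa5) and act through the cleaved ATF6, spliced Xbp1 mRNA and translated Atf4. Their targets are ER chaperones, disulfide isomerases and degradation factors, and prolonged PERK signalling raises the proapoptotic factor Ddit3. Neurons carry high amounts of the constitutive cytosolic chaperones and little of the inducible ones.

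Of the 36 genes, 30 had promoter windows in the RefSeq-based table (GRCm38.p6, 250 bases before to 50 after a start site). Hsf1, Hspa8, Hsp90aa1, Hsp90ab1, Hspa9 and Atf6 had none and were not searched. The windows were searched on both strands for the ER stress element, CCAAT and CCACG with 9 bases of any kind between them, and for the heat shock element, GAA, TTC and GAA with 2 bases of any kind after each of the first 2, or its reverse complement. These are shown because they are the letters by which the ER and cytosolic programmes are usually told apart. The ER stress element was found in 5 members, all of the ER class, in 0.119% of all 32851 promoters and in 0.137% of the 27025 genes with a promoter. The heat shock element was found in 4 members, of which 2 were cytosolic and 2 mitochondrial, in 0.603% of all promoters and in 0.662% of genes. Hspa1a, Hspa1b, Dnajb1 and Bag3 were searched and had no match to it. The search allowed no mismatch in GAA or TTC, so it does not show that a promoter lacks a heat shock element. Matches are shown in capitals with 8 flanking bases, each 5′ to 3′ on the gene's strand.
Hspa5, chr2:34772017-34772051, plus: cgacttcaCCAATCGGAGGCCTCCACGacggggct
Hsp90b1, chr10:86705630-86705664, minus: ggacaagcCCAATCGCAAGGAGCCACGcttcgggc
Hsp90b1, chr10:86705525-86705559, minus: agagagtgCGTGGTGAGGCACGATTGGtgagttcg
Canx, chr11:50325792-50325826, minus: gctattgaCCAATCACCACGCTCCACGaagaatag
Pdia6, chr12:17266483-17266517, plus: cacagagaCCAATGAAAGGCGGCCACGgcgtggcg
Calr, chr8:84847067-84847101, minus: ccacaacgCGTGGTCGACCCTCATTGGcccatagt
Dnajb6, chr5:29735844-29735872, plus: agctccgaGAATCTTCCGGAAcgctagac
Hsph1, chr5:149636280-149636308, minus: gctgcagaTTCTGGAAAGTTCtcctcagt
Hspd1, chr1:55088056-55088084, minus: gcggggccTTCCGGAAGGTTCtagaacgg
Hspd1, chr1:55088051-55088079, minus: gccttccgGAAGGTTCTAGAAcggaccgt
The paired Hspd1 matches overlap each other, and the same letters, read on the other strand, are the matches of Hspe1, which starts from the opposite side of the same promoter. The GENCODE models of Hspd1 and Hspe1 overlap by 112 bases on opposite strands (chr1:55088132-55088243). The Hsph1 match begins after the annotated start site. A match is a run of letters and was not tested as a binding site.

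The 39 libraries held 3.77 to 33.9 M gene counts (median 10.5 M), and the 36 genes together took 0.394% to 0.961% of them. Replicate numbers repeat within both nonescalating groups, each of which was fitted as 1 group. At 1 month, nonescalating libraries 1596 to 1600 held 10.5 to 15.2 M gene counts, and 1601 to 1605, where the numbers start again, held 4.97 to 8.92 M. Markers of the tagged cells were present in each library, but 2 of the 24-hour saline libraries, 1573 and 1574, stood apart. In library 1573 the summed level of 6 D1 medium spiny neuron markers was 301 CPM (counts scaled to library size), against a median of 1905 CPM over all libraries. Its summed level of 12 astrocyte markers was 4512 CPM against a median of 635 CPM, and 70.3% of its gene, ambiguous and no-feature reads together were no-feature reads. Library 1574 had 3021 CPM of 13 vascular markers, the highest of all, 3372 CPM of astrocyte markers and 51.1% no-feature reads. The 24-hour escalating library 1589 had 2681 CPM of vascular markers (median of all libraries 350.3) and 40.2% no-feature reads. Libraries 1574 and 1582 (24-hour nonescalating) had the fewest genes detected, 11375 and 11661 against a median of 15013. The main results that use 24-hour libraries are also given without 1573, 1574 and 1582. Library 1589 was kept in these. In bulk RNA of this kind, fewer cells of a type and less RNA per cell cannot be told apart.

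The constitutive cytosolic chaperones dominated. Levels are compared between genes as CPM per kb of exon, as medians over 39 libraries. Hsp90ab1, the constitutive HSP90, was highest at 659 CPM per kb, followed by Hspa8 (HSC70, the constitutive HSP70) at 264, Hsp90aa1 (the stress-responsive HSP90) at 181 and Hsph1 (HSP110, a nucleotide exchange factor for HSP70) at 120 CPM per kb. The mitochondrial chaperonin Hspd1 (HSP60) stood at 83.2 CPM per kb, and the most abundant ER gene was Hsp90b1 (GRP94, the HSP90 of the ER) at 71.99 CPM per kb. Canx and Calr, the lectin chaperones of glycoprotein folding, were close together at 45.4 and 44.4 CPM per kb, and Hspa5 was at 39.7 CPM per kb. At the bottom were the genes that are low in unstressed cells: the small heat shock genes Hspb1 at 0.635 and Hspb8 at 0.168, the pseudokinase gene Trib3 at 0.360 and the inducible HSP70 genes Hspa1a at 0.340 and Hspa1b at 0.0442 CPM per kb. Hspb8 was at 0 in 12 of 39 libraries, Hspa1b in 14, and Hspa1a, Hspb1 and Trib3 in 7 each. Among the 3 ER sensors, Atf6 (17.9 CPM per kb) lay far above Eif2ak3 (1.27) and Ern1 (0.502).

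**Figure D1:**
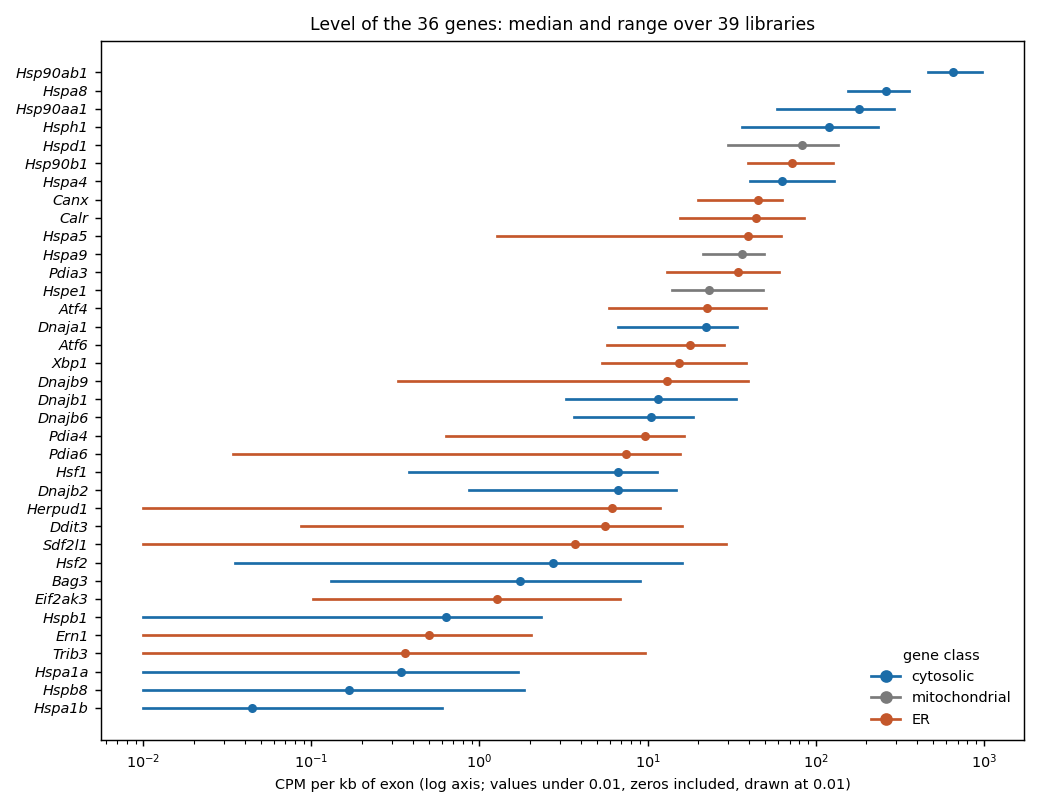
Median (point) and lowest to highest value (line) of each of the 36 genes over 39 libraries, in CPM per kb of exon on a log axis, coloured by class. Cytosolic genes hold both the top (Hsp90ab1, 659) and the bottom (Hspa1b, 0.0442) of the order, and most ER genes lie between.

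Abundant genes varied little between libraries of a group and low genes varied more. The SD of log2 CPM within groups was 0.23 for Hspa8, 0.25 for Hsp90ab1 and 0.31 for Hspa9 (mortalin, the mitochondrial HSP70). It was 0.55 for Hsp90aa1, 0.92 for Hspa5, 1.35 for Pdia6 (an ER disulfide isomerase), 1.41 for Herpud1 (a membrane component of ER-associated degradation) and 1.76 for Sdf2l1 (a cofactor of BiP). The values for Hspa5, Pdia6 and Herpud1 include library 1582, in which Hspa5 was at 5.37 CPM, Pdia6 at 0.128 CPM and Herpud1 at 0, the lowest or joint lowest values of these genes in 39 libraries.

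The first question was whether cocaine intake went with a change of either class at either time. No gene of the 36 passed an adjusted p of 0.05 in any of the 6 comparisons within a time point (edgeR quasi-likelihood test, Benjamini-Hochberg over all genes tested), and 0% of the 14137 genes tested at 24 hours and 0% of the 14181 tested at 1 month did so. In each, 35 members were tested, since Hspa1b did not pass the filter on low counts. At an unadjusted p under 0.05, 1 member differed between nonescalating and saline at 24 hours (Bag3), where 9.97% of all genes tested did. Neither escalating against saline (0 members, 5.16% of all genes) nor escalating against nonescalating (0 members, 3.15% of all genes) at 24 hours had any. At 1 month the counts were 2 for nonescalating against saline (Hsf1 and Bag3, 4.53% of all genes), 2 for escalating against saline (Hsf1 and Hsp90b1, 4.36%) and 1 for escalating against nonescalating (Bag3, 2.31%). No count of members stood clear of the background share. DESeq2 and limma voom also called 0 members in these 6 comparisons. DESeq2 called 164 genes in all for nonescalating against saline at 24 hours and at most 8 in the other 5, and limma voom called 0.

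Cytosolic and ER genes were then followed apart. At 24 hours, 12 of 15 tested cytosolic genes were above 0 in nonescalating against saline, with a median log2 fold change of 0.26, while the 17 ER genes had 10 above 0 and a median of 0.02. The median over all genes tested was -0.03. In escalating against saline at 24 hours the cytosolic median was 0.21 (10 of 15 above 0) and the ER median 0.05 (9 of 17), beside -0.06 for all genes. Leaving out library 1574 alone gave cytosolic medians of 0.11 and 0.04. Without libraries 1573, 1574 and 1582 the cytosolic medians were 0.02 for nonescalating and -0.03 for escalating against saline, and the ER medians 0.01 and -0.12. In escalating against nonescalating at 24 hours the medians were -0.07 for cytosolic and -0.02 for ER genes.

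At 1 month neither class was offset by more than 0.1 on the log2 scale in the main fit. Leaving out each library in turn gave medians from -0.14 to 0.12. The base composition of the libraries, described below, was also used as a covariate. The medians against saline were then 0.12 and 0.23 for cytosolic genes in nonescalating and escalating libraries, and -0.05 and 0.13 for ER genes. Values of the main fit follow. In nonescalating against saline the cytosolic median was -0.07 (6 of 15 above 0) and the ER median -0.08 (6 of 17), beside 0.02 for all genes. In escalating against saline they were -0.04 (7 of 15) and 0.08 (10 of 17), beside -0.01. In escalating against nonescalating they were 0.00 and -0.02, beside -0.04. The precision of single genes was better at 1 month, where the median standard error of a cytosolic gene in nonescalating against saline was 0.21 and of an ER gene 0.26, against 0.41 and 0.46 at 24 hours.

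**Figure D2:**
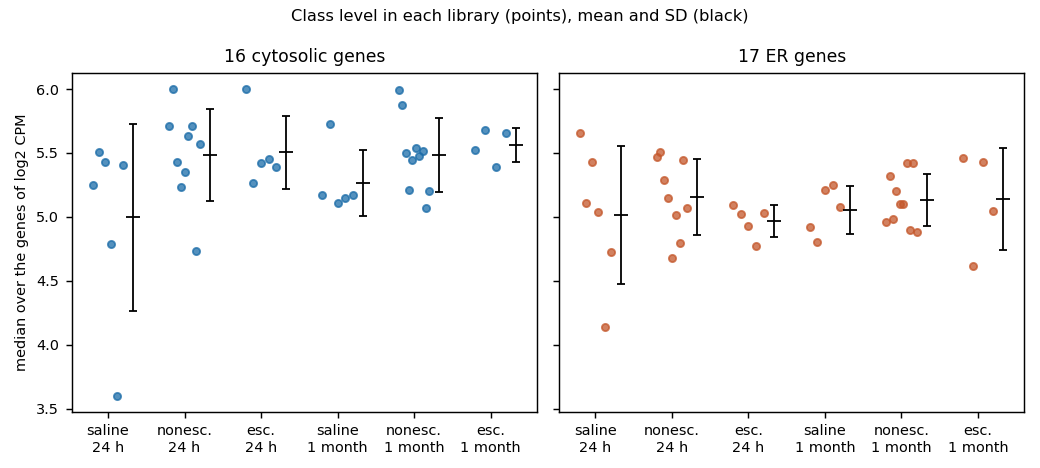
Median over the 16 cytosolic genes (left) and the 17 ER genes (right) of log2 CPM in each library (points), by group, with the mean and SD of each group in black. The 24-hour saline libraries spread most, from 3.598 to 5.51 for cytosolic genes and from 4.14 to 5.66 for ER genes, and the group means of the other 5 groups lie between 5.26 and 5.56 and between 4.97 and 5.16.

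**Figure D3:**
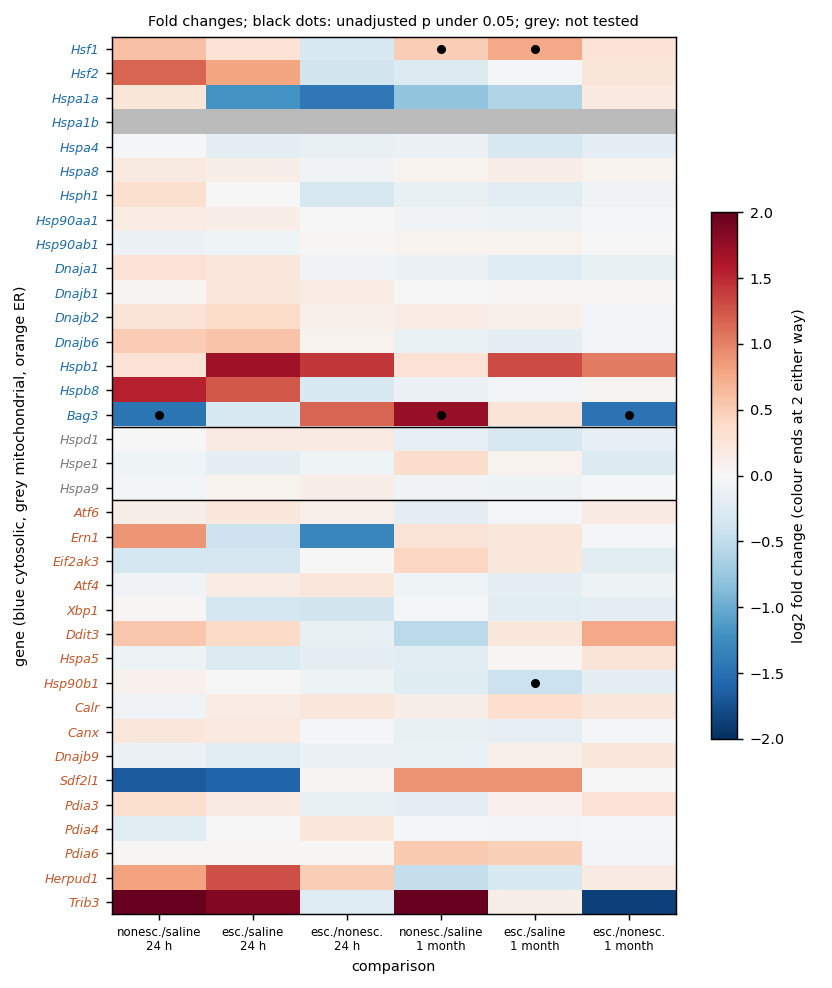
Log2 fold change of each gene (rows) in the 6 comparisons within a time point (columns); red is higher in the first group named, blue lower, grey was not tested, and colours end at 2 in either direction. The 6 black dots, at an unadjusted p under 0.05, lie on Bag3 (3), Hsf1 (2) and Hsp90b1 (1), and large colours without a dot belong to low genes such as Trib3 and Hspb1.

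Hsf1, the factor that drives the cytosolic response, gave the smallest p of all members. Its levels at 1 month in saline libraries were 31.2, 47.6, 31.0, 37.5 and 34.7 CPM, and in escalating libraries 63.3, 53.5, 59.4 and 70.4 CPM. The 10 nonescalating libraries ranged from 36.2 through a median of 51.1 to 64.4 CPM. Escalating and saline libraries did not overlap, and nonescalating libraries lay across both. Hsf1 is singled out here by its p, and the share of all genes that separate in this way was not counted. The escalating and saline libraries of 1 month did not overlap in depth either, at 5.75 to 6.96 M against 10.5 to 33.9 M gene counts. The part of depth in the Hsf1 values was not tested and cannot be told apart from group here. The log2 fold change of escalating against saline was 0.75 (SE 0.22, unadjusted p = 0.0017, edgeR adjusted p = 1.0), and that of nonescalating against saline was 0.49 (SE 0.18, unadjusted p = 0.012, edgeR adjusted p = 0.99). Leaving out each library in turn gave 0.68 to 0.87 for the first and 0.43 to 0.60 for the second. With all 39 libraries in 1 edgeR fit, Hsf1 had no unadjusted p under 0.05 in either comparison. At 24 hours the groups overlapped throughout: saline libraries ranged from 2.69 through a median of 38.1 to 50.02 CPM and nonescalating from 8.28 through 50.8 to 80.3 CPM, and escalating libraries were at 32.0, 47.7, 47.9, 13.02 and 58.2 CPM. In escalating against saline at 1 month, 12 of 13 vascular markers were above 0 (median 0.81), with summed levels of 236 to 1040.5 CPM against 67.3 to 468 CPM, as were 6 of 7 tested microglia markers (median 0.66) and 5 of 12 astrocyte markers (median -0.55). Of the tested oligodendrocyte markers, 2 of 8 were above 0 there (median -0.21). In nonescalating against saline, 13 of 13 vascular (median 0.68) and 8 of 8 tested oligodendrocyte markers (median 0.57) were above 0. Astrocyte markers had 5 of 12 above 0 (median -0.24) and tested microglia markers 2 of 7 (median -0.33). The part of these cells in the Hsf1 values was not tested. As background, the activity of HSF1 is set mainly on the protein, which RNA does not show.

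Hsf2, the related factor with roles in development and in the response to proteasome inhibition, showed no such order at 1 month. Saline libraries averaged 28.9 ± 12.03 CPM (SD, n = 5), nonescalating 23.9 ± 10.3 CPM (n = 10) and escalating 28.2 ± 3.93 CPM (n = 4). At 24 hours the saline libraries split, with 3 at 0.336 to 5.02 CPM and 3 at 31.4 to 32.4 CPM, and the highest of all was the nonescalating library 1582 at 154 CPM.

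The inducible HSP70 pair stayed near the floor of detection in every group. Hspa1a ranged at 24 hours from 0 through a median of 1.24 to 2.21 CPM in saline and from 0 through 1.22 to 2.05 CPM in nonescalating libraries, and was at 0, 0.880, 0.706, 0.104 and 0.648 CPM in escalating libraries. At 1 month it was at 0, 0.587, 1.09, 1.46 and 5.03 CPM in saline libraries, from 0 through 0.732 to 2.03 CPM in nonescalating and at 2.92, 0.326, 0 and 1.10 CPM in escalating libraries. No group stood above the others. Hspa1b did not exceed 1.69 CPM in any library, its groups overlapped at 24 hours, and at 1 month it was at 0.326 to 0.603 CPM in all 4 escalating libraries, at 0 to 0.533 CPM in saline and at 0 to 0.612 CPM in nonescalating libraries. Over all 39 libraries Hspa1a had 570 counts and Hspa1b 97. The genes are near-identical copies on chromosome 17, so reads that fit both may be missing from both, and an inducible HSP70 response of low size was not detectable at this depth.

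The constitutive HSP70, Hspa8, which folds new proteins and uncoats clathrin vesicles at synapses, overlapped between groups at both times. At 24 hours it ranged from 668 through 1005 to 1222 CPM in saline and from 861 through 1066 to 1253 CPM in nonescalating libraries, and was at 1019, 1102, 1217, 1064 and 813 CPM in escalating libraries. In the later libraries it was at 955, 1306, 1161, 1121 and 1318 CPM in saline, from 897 through 1294 to 1467 CPM in nonescalating and at 1553, 1146, 1299 and 1186 CPM in escalating libraries. Its differences were among the best bounded of the 36. At 1 month the interval of 2 standard errors around the log2 fold change was -0.15 to 0.31 for nonescalating and -0.14 to 0.42 for escalating against saline. For Hsp90ab1 the intervals were -0.13 to 0.26 and -0.17 to 0.30. Intervals for these genes were added after their values were seen.

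Hsp90aa1 spread more widely than Hspa8 on the log2 scale in 5 groups, the exception being 1-month saline. At 24 hours it ranged from 246 through 594 to 1030.3 CPM in saline and from 231 through 648 to 1064 CPM in nonescalating libraries, and was at 1151, 664, 612, 504 and 451 CPM in escalating libraries. The 1-month saline libraries were at 848, 910, 678, 709 and 745 CPM, the nonescalating ranged from 412 through 765 to 1079 CPM and the escalating were at 962, 711, 804 and 438 CPM. The groups overlapped, and the order of libraries within groups is taken up below with their base composition. Hsph1 and Hspa4 (another HSP110-type exchange factor) also spread widely, with ranges of 264 to 1699 CPM and 224 to 714 CPM over 39 libraries.

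Among the J-domain cochaperones, which hand clients to HSP70, Dnaja1 was lowest of all 39 libraries in library 1573 (57.4 CPM) and Dnajb6 in library 1574 (22.2 CPM), both of 24-hour saline. Dnaja1 averaged 154 ± 58.5 CPM (SD, n = 6) in 24-hour saline and 217 ± 46.3 CPM (n = 5) in 1-month saline. Dnajb6, which suppresses polyglutamine aggregation, averaged 47.1 ± 19.3 CPM in 24-hour saline, 66.3 ± 14.05 CPM in nonescalating (n = 9) and 70.8 ± 26.9 CPM in escalating libraries (n = 5). Dnajb1, the classical partner of inducible HSP70, had group means within 38.2 to 44.5 CPM at both times, and Dnajb2, a neuronal J protein linked to the proteasome, within 23.1 to 31.9 CPM. Neither passed an unadjusted p of 0.05 in any of the 6 comparisons. The small heat shock genes Hspb1 (HSP27) and Hspb8 had group means of 0.471 to 1.46 CPM and 0.381 to 1.05 CPM, too low for a fold change to be read.

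Bag3, the cochaperone that links HSP70 and HSPB8 to selective autophagy, pointed in opposite directions at the 2 times in nonescalating against saline. At 24 hours it ranged in saline libraries from 0.438 through a median of 7.59 to 23.1 CPM and in nonescalating libraries from 0.766 through 2.29 to 7.74 CPM, and was at 4.58, 4.08, 7.65, 7.29 and 12.8 CPM in escalating libraries. At 1 month it was at 2.45, 0.336, 1.68, 2.07 and 4.60 CPM in saline, from 1.49 through 6.59 to 16.6 CPM in nonescalating and at 4.73, 2.28, 0.904 and 2.83 CPM in escalating libraries. Each of these pairs of groups overlapped. The log2 fold change of nonescalating against saline was -1.47 at 24 hours (SE 0.71, unadjusted p = 0.048, edgeR adjusted p = 0.50) and 1.74 at 1 month (SE 0.65, unadjusted p = 0.013, edgeR adjusted p = 0.99). At 1 month, escalating against nonescalating gave -1.48 (SE 0.71, unadjusted p = 0.047, edgeR adjusted p = 1.0).

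The 24-hour difference of Bag3 rested on the libraries that stand apart. The highest saline value, 23.1 CPM, was that of library 1573, and the log2 fold change was -0.92 without that library and -0.41 without libraries 1573, 1574 and 1582. In the same comparison 2 of 12 astrocyte, 0 of 10 oligodendrocyte, 1 of 6 tested microglia and 0 of 13 vascular marker genes were above 0, with medians of -1.24, -1.38, -1.25 and -1.67. At 1 month, where these libraries play no part, 13 of 13 vascular and 8 of 8 tested oligodendrocyte markers were above 0 in nonescalating against saline, with medians of 0.68 and 0.57. Of astrocyte and tested microglia markers, 5 of 12 and 2 of 7 were above 0, with medians of -0.24 and -0.33. The summed vascular level was 67.3 to 468 CPM in saline and 82.8 to 1292 CPM in nonescalating libraries, and that of oligodendrocyte markers 109 to 241 CPM and 102 to 690.0 CPM. In escalating against nonescalating at 1 month, 8 of 13 vascular, 1 of 8 oligodendrocyte, 3 of 12 astrocyte and 5 of 7 microglia markers were above 0. The part of these cells in the Bag3 results was not tested. Leaving out each 1-month library in turn gave 1.45 to 2.19 for nonescalating against saline.

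**Figure D4:**
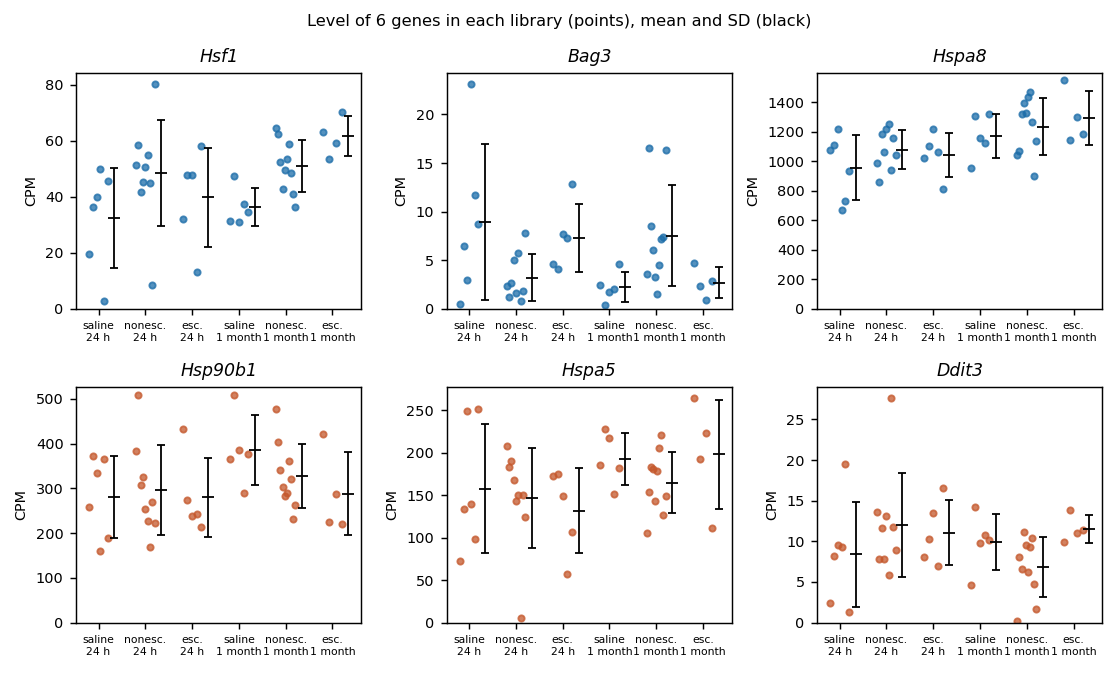
CPM of 6 genes in each library (points) by group, with the mean and SD of each group in black; blue marks cytosolic and orange ER genes. The Hsf1 points of the 4 escalating libraries of 1 month (53.5 to 70.4) lie above the 5 saline points (31.0 to 47.6), and in the other panels the groups of each time overlap. The share of all genes that separate as Hsf1 does was not counted.

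The 3 mitochondrial chaperone genes were followed apart from both classes. Hspd1 and its cochaperonin Hspe1 (HSP10) share their promoter. Hspd1 averaged 248.6 ± 38.8 CPM (SD, n = 5) in saline, 221 ± 44.2 CPM (n = 10) in nonescalating and 199 ± 51.0 CPM (n = 4) in escalating libraries of 1 month. Hspe1 averaged 30.9 ± 9.62, 39.3 ± 12.4 and 32.5 ± 4.96 CPM in the same groups, so the order of Hspd1 was not that of Hspe1. Hspa9 had group means of 147 to 163 CPM over the 6 groups. None of the 3 reached an unadjusted p of 0.05 within either time.

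The ER sensors showed no group difference at an unadjusted p under 0.05. Atf6 averaged 159 ± 75.5 CPM (SD, n = 6) in 24-hour saline, 172 ± 28.1 CPM (n = 9) in nonescalating and 187 ± 24.2 CPM (n = 5) in escalating libraries, and 182 ± 41.9 (n = 5), 161 ± 40.1 (n = 10) and 180 ± 29.5 CPM (n = 4) at 1 month. Eif2ak3 group means were 7.23 to 10.8 CPM and those of Ern1 3.20 to 7.68 CPM. The counts do not separate spliced from unspliced Xbp1, so the output of IRE1 cannot be read from them.

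The 3 transcription factors downstream of the sensors overlapped between groups. Atf4 ranged at 24 hours from 13.9 through 50.4 to 119.9 CPM in saline and from 32.9 through 55.9 to 70.9 CPM in nonescalating libraries, and was at 42.5, 53.5, 55.1, 112 and 64.7 CPM in escalating libraries. Its 1-month levels were 97.7, 39.9, 36.8, 52.7 and 42.0 CPM in saline and 44.0, 62.1, 43.0 and 40.1 CPM in escalating libraries, and ran from 14.2 through 52.7 to 73.9 CPM in nonescalating libraries. The high values were single libraries of different groups.

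Xbp1 ranged at 24 hours from 17.5 through 52.9 to 62.6 CPM in saline and from 42.0 through 47.1 to 64.8 CPM in nonescalating libraries, and was at 20.3, 49.3, 53.2, 27.2 and 46.1 CPM in escalating libraries. Of the later libraries, saline was at 50.7, 59.8, 60.9, 50.02 and 53.4 CPM, nonescalating ranged from 31.0 through 42.0 to 126 CPM and escalating was at 52.7, 18.6, 62.2 and 54.5 CPM. The saline libraries of 1 month lay close together and inside the range of both cocaine groups.

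Ddit3 (CHOP) stayed low. At 24 hours it ranged from 1.32 through 8.74 to 19.5 CPM in saline and from 5.84 through 11.6 to 27.6 CPM in nonescalating libraries, and was at 8.02, 10.3, 13.5, 6.98 and 16.5 CPM in escalating libraries. Later it was at 4.59, 14.3, 9.82, 10.8 and 10.1 CPM in saline, from 0.149 through 7.36 to 11.2 CPM in nonescalating and at 9.87, 13.85, 11 and 11.3 CPM in escalating libraries. The highest value was again that of library 1582. The Ddit3 model overlaps Mars on the opposite strand, and whether strand was used in counting is not given in the sources used here. The same holds for Dnaja1 (with Smu1), Pdia3 (with Catsper2), Pdia6 (with Atp6v1c2), Dnajb6 (with Gm5129), Hspa1a (with Gm20481), and Hspd1 and Hspe1 (with each other).

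Hspa5, the master chaperone of the ER and the standard readout of the unfolded protein response, showed no difference past the test. At 24 hours it ranged from 72.9 through 137 to 251 CPM in saline and from 5.37 through 151 to 207 CPM in nonescalating libraries, and was at 172, 175, 149, 57.1 and 106 CPM in escalating libraries. At 1 month it was at 185, 228, 217, 151 and 182 CPM in saline, from 105 through 166 to 221 CPM in nonescalating and at 264, 193, 223 and 112 CPM in escalating libraries. The groups overlapped at both times. The interval of 2 standard errors around the log2 fold change against saline was wide at 24 hours, -0.93 to 0.73 for nonescalating and -1.23 to 0.69 for escalating. It was -0.57 to 0.12 and -0.40 to 0.47 at 1 month, so these data bound a change of Hspa5 less tightly than one of Hspa8.

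Hsp90b1, which carries 2 ER stress elements in the window printed above, was the only ER gene at an unadjusted p under 0.05 in a comparison within a time. At 1 month it was at 366, 508, 386, 290 and 376 CPM in saline and at 421, 226, 287 and 220 CPM in escalating libraries, and ranged from 232 through 311 to 477 CPM in nonescalating libraries. At 24 hours it ranged from 160 through 297 to 372 CPM in saline and from 169 through 270 to 508 CPM in nonescalating libraries, and was at 434, 274, 237, 243 and 213 CPM in escalating libraries. The groups overlapped at both times. The log2 fold change of escalating against saline at 1 month was -0.42 (SE 0.20, unadjusted p = 0.047, edgeR adjusted p = 1.0). With the GC contrast described below as a covariate it was -0.02.

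The other ER chaperone genes with an ER stress element in the window, Canx, Calr and Pdia6, had no unadjusted p under 0.05. At 1 month Calr averaged 130 ± 20.4 CPM (SD, n = 5) in saline, 140 ± 33.4 CPM (n = 10) in nonescalating and 164 ± 35.8 CPM (n = 4) in escalating libraries, while Canx averaged 232 ± 48.1, 210 ± 45.6 and 208 ± 40.8 CPM. The means of Canx differed by less than the SD of each group, and those of Calr in escalating and saline libraries by more than the saline SD and less than the escalating SD. Among the disulfide isomerases, Pdia3 and Pdia4 had 1-month group means of 110 to 132 CPM and 23.1 to 23.9 CPM. Dnajb9, an XBP1 target that returns clients to BiP, had group means of 33.9 to 42.3 CPM over the 6 groups. Pdia6 means were 23.4 to 33.7 CPM, those of Herpud1 7.12 to 19.3 CPM and those of Sdf2l1 2.56 to 12.01 CPM, the highest of which was 24-hour saline with an SD of 12.3 CPM. Trib3, a target of CHOP, had group means of 0.331 to 2.97 CPM, the highest of which rested on library 1597 at 20.5 CPM.

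The second question was whether the 2 times differed. The labels name no preparation batch. Library numbers go from 1570 to 1609 without a break, and each group is a consecutive block of them. Whether times or groups were prepared together is not shown, so neither can be told apart from preparation or run. No member passed an adjusted p of 0.05 between times in saline, nonescalating or escalating libraries or in any of the 3 changes of a contrast with time, and 0% of 15579 genes did. At an unadjusted p under 0.05 there were 4 members in saline (13% of all genes), 1 in nonescalating (4.64%) and 0 in escalating libraries (1.72%). In saline, the log2 difference of 1 month from 24 hours was 0.64 for Dnajb6, 1.43 for Herpud1, -1.95 for Bag3 and -2.19 for Sdf2l1. Without libraries 1573, 1574 and 1582 these were 0.34, 0.91, -1.05 and -1.94, and only Herpud1 and Sdf2l1 of the 4 still had an unadjusted p under 0.05. The cytosolic median of 1 month against 24 hours was 0.36 in saline (13 of 15 above 0), beside -0.06 for all genes, against 0.09 in nonescalating and 0.04 in escalating libraries. The corresponding ER medians were 0.18, 0.14 and 0.14. Without the 3 libraries the cytosolic median in saline was 0.12 (12 of 15 above 0) and the ER median 0.12 (11 of 17). In the saline comparison with all libraries 0 of 13 vascular, 0 of 10 oligodendrocyte and 3 of 12 astrocyte markers were above 0, with medians of -2.16, -1.97 and -1.08, and without the 3 libraries 1, 6 and 9 were, with medians of -0.67, 0.17 and 0.56. The comparisons of cocaine with saline over time share these saline libraries.

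The change of nonescalating against saline from 24 hours to 1 month had 2 members at an unadjusted p under 0.05 (Bag3 and Sdf2l1, 9.8% of all genes), that of escalating against saline 0 (4.94%) and that of escalating against nonescalating 1 (Bag3, 2.3%). For Bag3 the first change was 3.17 on the log2 scale (SE 0.97, unadjusted p = 0.0020, edgeR adjusted p = 0.24). DESeq2 called this change and the saline time difference of Bag3, and no other member in these comparisons, where it called 109 and 583 genes in all. Without libraries 1573, 1574 and 1582 the change was 2.15 (SE 0.92, unadjusted p = 0.024, edgeR adjusted p = 0.75), and DESeq2 called neither (adjusted p of 0.51 for the change and 0.69 for saline). With all libraries, 13 of 13 vascular and 9 of 10 oligodendrocyte markers had a change above 0 (medians 2.32 and 1.90), and without the 3 libraries 12 and 5 had (medians 0.84 and -0.36). Bag3 is singled out here after its values were seen, and the part of other cells was not tested.

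Several members were ordered across libraries by base composition. Libraries differed in a contrast of genes by base composition: the mean log2 level of 1242 genes of low GC content (at most 43.4% of the transcript) less that of 1242 genes of high GC content (at least 54.7%), with all members and listed genes left out. This contrast was looked at after the values of the members were seen. It ran from -0.72 to 0.68, and the 10 libraries with the highest contrast (0.23 to 0.68) were the same 10 as those with the highest Hspa4. Hspa4 was at 444 to 714 CPM in these and at 224 to 416 CPM in the other 29. The 10 were 3 of 6 saline, 2 of 9 nonescalating and 1 of 5 escalating libraries of 24 hours, and 2 of 5, 2 of 10 and 0 of 4 of 1 month. The contrast was not even over groups: its medians were 0.20 in saline, -0.11 in nonescalating and -0.04 in escalating libraries of 24 hours, and 0.17, -0.03 and -0.17 in those of 1 month, with overlapping ranges.

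In a fit of group and GC contrast over 39 libraries, 6 of 35 members had a slope at an adjusted p under 0.05, where 8.42% of all genes did, and each rose with the contrast. That share includes genes that define the contrast, which made up 557 of the 1312 called, while members were left out of its definition. The slopes, in log2 per unit of contrast, were 1.11 for Hspa4 (SE 0.17, edgeR adjusted p = 1.9e-05), 1.19 for Hsp90aa1 (SE 0.22), 1.07 for Hspd1 (SE 0.19), 1.09 for Hsp90b1 (SE 0.17), 0.80 for Dnaja1 (SE 0.22) and 0.65 for Canx (SE 0.21). These are 3 cytosolic, 1 mitochondrial and 2 ER genes, so the order cut across the compartments. Without libraries 1573, 1574 and 1582 the count was 13 of 35, where 17.9% of all genes had such a slope. Of the 2755 genes called there, 1024 were among those that define the contrast. Of the 13, 12 rose and Atf4 fell, with a slope of -0.90 (SE 0.27, edgeR adjusted p = 0.017). Of the 6 transcripts, those of Dnaja1, Hsp90b1 and Canx lie in the low range at 41.2% to 42.2% GC, that of Hsp90aa1 is just above it at 43.7%, and those of Hspa4 and Hspd1 are at 46.6% and 46.8%. That of Atf4 is at 55.5%. Low GC did not go with a called slope in each member over 39 libraries: Hsf2, the lowest at 36.2% GC, had 0.53 (SE 0.68, edgeR adjusted p = 0.69). Dnajb9, at 40.6% GC, had 0.91 (SE 0.42, edgeR adjusted p = 0.18). Without libraries 1573, 1574 and 1582 Dnajb9 had 1.03 (SE 0.27, edgeR adjusted p = 0.0045). Hspa5, above the low range at 45.6% GC, had 0.02 (SE 0.38) over 39 libraries.

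**Figure D5:**
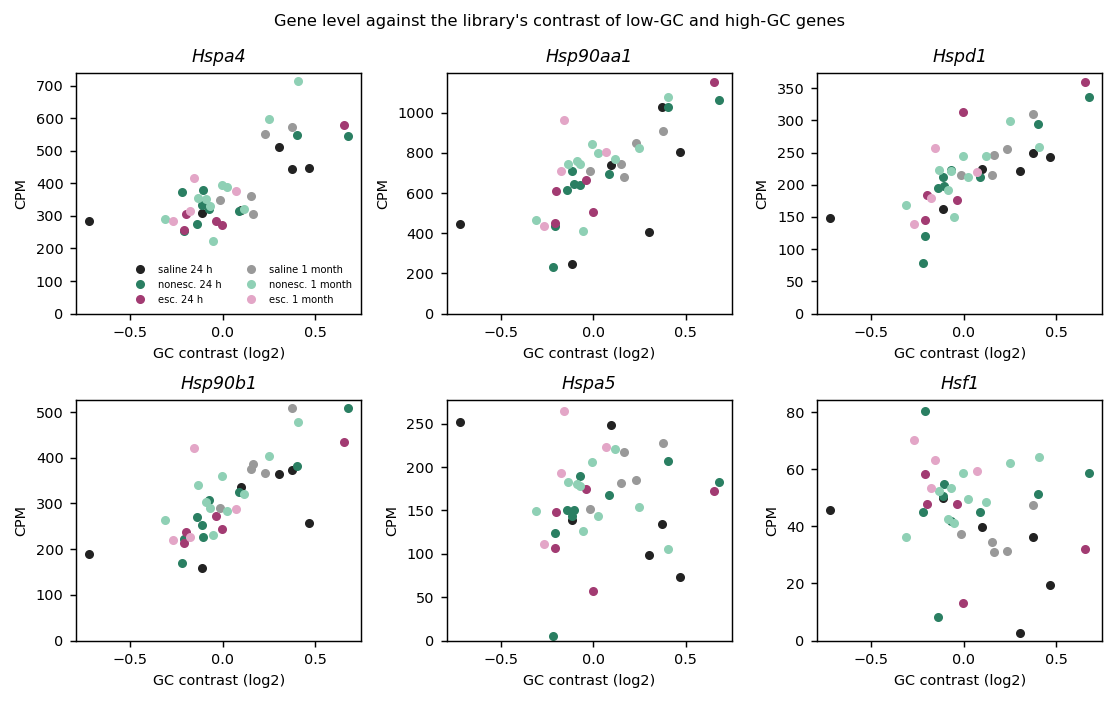
CPM of 6 genes against the GC contrast of each library (x axis, log2 of low-GC over high-GC genes), coloured by group. Hspa4, Hsp90aa1, Hspd1 and Hsp90b1 rise with the contrast in libraries of several groups, while Hspa5 and Hsf1 do not order by it.

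With the contrast as a covariate no member passed an adjusted p of 0.05 within a time, and the log2 fold change of Hsf1 at 1 month was 1.02 for escalating and 0.61 for nonescalating against saline. What gives libraries their contrast was not tested.

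Other genes of the same pathways gave no called gene in any comparison. Of 39 further cytosolic chaperones and cochaperones, 1 was lower in nonescalating against saline at 24 hours at an unadjusted p under 0.05 and none higher. Of all genes tested, 9.97% differed there. At 1 month 1 was higher and 2 were lower, where 4.53% of all genes differed. The higher was Ahsa1, an activator of HSP90, at 88.9 ± 21.0 CPM (SD, n = 10) against 65.5 ± 14.2 CPM in saline (n = 5). Its log2 fold change was 0.44 (SE 0.19, unadjusted edgeR p = 0.026). In escalating against saline at 1 month Ahsa1 stood at 0.47 (SE 0.22) and Dnajb4, a J protein, at -0.52 (SE 0.20, unadjusted p = 0.014). The median of the 39 genes ran from -0.07 to 0.06 over the 6 comparisons within a time.

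Of 40 further genes of ER stress and ER quality control, at most 2 differed at an unadjusted p under 0.05 in any comparison within a time. The share of all genes that did was 2.31% to 9.97%. Without libraries 1573, 1574 and 1582, 4 differed in escalating against saline at 24 hours, where 1277 of 14330 genes did. The median of the 40 genes was -0.11 for nonescalating and -0.24 for escalating against saline at 24 hours (-0.01 and -0.11 without the 3 libraries) and -0.05 and 0.10 at 1 month. The lowest p of this list at 1 month was that of Eif2s1, the subunit eIF2α that PERK phosphorylates, at 37.8 ± 10.4 CPM in escalating (n = 4) against 66.0 ± 17.9 CPM in saline libraries (n = 5), a log2 fold change of -0.81 (SE 0.27, unadjusted p = 0.0053, edgeR adjusted p = 1.0). A list of 26 genes held targets of ATF4 and kinases of the integrated stress response. At an unadjusted p under 0.05, 4 of 21 tested were lower in nonescalating against saline at 24 hours, where 9.97% of all genes differed. In escalating against saline 2 were lower, where 5.16% of all genes differed. Without libraries 1573, 1574 and 1582 these counts were 1 and 0 of 22 tested. At 1 month there were 0 of 23 tested in either cocaine group against saline. In escalating against nonescalating 2 (Cth and Slc7a11) were higher, where 2.31% of all genes differed. Cth was at 6.79 ± 12.1 CPM (SD) in escalating and 0.482 ± 0.983 CPM in nonescalating libraries, so its SD exceeded its mean in both. The 12 other mitochondrial chaperones and proteases had 0 at that level in all 6.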

How the data were processed

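Counts per gene symbol were deposited as 1 table a library. Per the submitters' processing notes the tools were STAR 2.0.0e and HTSeq and the build mm10, and the strand setting is not given in the sources used here. No-feature and other summary lines stayed out of library sizes. R 4.3.3 was used. edgeR 4.0.16 (TMM, filterByExpr with a minimum count of 10, robust quasi-likelihood test) was fitted per time point on all genes and, for comparisons of times, on all 39 libraries, with Benjamini-Hochberg adjustment over all genes tested and a threshold of 0.05. CPM used TMM-scaled library sizes. DESeq2 1.42.0 and limma 3.58.1 (voom) were among the alternatives. Scripts were tested on simulated counts.

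Members and gene lists were chosen with earlier results of these data known. Fold changes are given within a time for members at an unadjusted p under 0.05, and values by library for these and for 8 further genes: Hspa1a, Hspa1b, Hsp90aa1, Hspa8, Hspa5, Xbp1, Atf4 and Ddit3. Other lists were described by up to 3 genes a comparison. No 2 libraries of a group agreed within sampling noise (122 pairs, chi-square per gene of 12.8 or more).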

Additional observations from a re-analysis of the deposited data

Results flagged for a closer look

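Of 216 sets of 1 gene in 1 group, 32 held a highest or lowest library set apart from the rest of its group by a gap that is large for the group's range. Chance alone gives about 1 in 20, or 10.8. Of the 32, 6 lay in library 1574, 6 in 1582 and 4 in 1596.

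In the 24-hour saline library 1574, Hsf1 was at 2.686 CPM, Dnajb2 at 3.693 CPM, Xbp1 at 17.46 CPM, Dnajb9 at 0.8393 CPM, Pdia4 at 1.511 CPM and Pdia6 at 1.679 CPM, all of them low. In the 24-hour nonescalating library 1582, Hsf2 was high at 153.9 CPM, while Hspa1a and Herpud1 were at 0 CPM, Dnajb2 at 4.343 CPM, Hspa5 at 5.365 CPM and Pdia6 at 0.1277 CPM. In the 1-month nonescalating library 1596, Dnajb1 was high at 108.3 CPM and Atf6 at 263.7 CPM, while Ddit3 was low at 0.1488 CPM and Calr at 62.14 CPM.

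The others were spread over 14 libraries. In 24-hour saline, Hspb1 was high at 2.175 CPM in library 1573 and Trib3 at 1.722 CPM in 1572, and Eif2ak3 was low at 0.6162 CPM in 1575. In 24-hour nonescalating libraries, Hsf1 was low at 8.279 CPM and Dnajb1 at 10.43 CPM in 1583, Dnajb9 was low at 16.81 CPM in 1580 and Hspa1b was high at 1.688 CPM in 1578. In 24-hour escalating libraries, Hspa4 was high at 580.5 CPM in 1585, and Eif2ak3 was low at 2.603 CPM in 1588 and Pdia3 at 89.53 CPM in 1587. At 1 month, Hsp90ab1 was high at 2420 CPM in saline library 1591 and Dnajb2 low at 8.426 CPM in saline library 1590. In nonescalating library 1597 Atf4 was low at 14.15 CPM and Trib3 high at 20.5 CPM. In escalating libraries Hspb8 was low at 0.1391 CPM in 1606 and Xbp1 at 18.58 CPM in 1607.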

How the results depend on the processing

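The number of members at an adjusted p under 0.05 stayed 0 within both times under every alternative run. Between times, DESeq2 called 1 member (Bag3) in saline and 1 (Bag3) in the change of nonescalating against saline, where edgeR called 0. The 6 fold changes given within a time for Bag3, Hsf1 and Hsp90b1 kept their direction under every alternative run, though that of Bag3 at 24 hours ranged from -1.75 to -0.41 and that of Hsp90b1 from -0.67 to -0.02, the last with the GC covariate. Of the 12 class medians within a time, 10 changed sign under at least 1 alternative. The exceptions were nonescalating against saline for cytosolic genes at 24 hours and for ER genes at 1 month.

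Counts of members at an unadjusted p under 0.05 moved by over 1.5 times as follows. For nonescalating against saline at 24 hours (1 in the report) there were 2 with DESeq2, 3 with all 39 libraries in 1 fit, and 0 without the low-count filter, with limma voom or without libraries 1573, 1574 and 1582. For escalating against saline at 24 hours (0) there was 1 with limma voom, without those 3 libraries and with all 39. For nonescalating against saline at 1 month (2) there were 4 with the GC contrast as covariate, an alternative chosen after seeing the data. With all 39 there was 1 (Bag3, without Hsf1). For escalating against saline at 1 month (2) there was 1 with DESeq2, with RLE size factors or with library 1595, and 0 with all 39. For escalating against nonescalating at 1 month (1) there were 2 with the GC covariate and 0 without the filter, with limma voom or with all 39. Members with a slope on the GC contrast numbered 13 without the 3 libraries, against 6.

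Leaving out each library in turn gave 0 to 2, 0 to 1 (1 without 1572 or 1573) and 0 to 1 (1 without 1589) members for the 3 comparisons at 24 hours, and 2 to 3, 1 to 3 and 0 to 2 for those at 1 month. The Hsp90b1 fold change then ranged from -0.67 to -0.31. The causes were not tested. Values between times without libraries 1573, 1574 and 1582 were added after seeing the data.

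With the replicate number as a block the count was 0 for nonescalating against saline at 24 hours and 0 for escalating against nonescalating at 1 month. The numbers do not pair the libraries: 42 same-number pairs correlated at -0.16 to 0.39 (median 0.02), and 9 of 39 libraries correlated best with their own number.

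Depth limits Hspa1a, Hspa1b, Hspb1, Hspb8 and Trib3, whose fold changes cannot be read at these counts.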
